A study of Mus musculus with 4 samples.

Results

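The 10 genes described here are immediate early genes of the mouse: Fos, Fosb, Jun, Junb, Egr1, Atf3, Nr4a1, Nr4a2, Ier2 and Zfp36. They were chosen by symbol and not by a measured value, but earlier results of these data were known at that time. Each matched 1 row of the 31054 gene rows that the 4 count matrices share. They were followed in lungs of aged male C57BL/6 mice, aged 19 months at the start and then given BPTES or its vehicle DMSO over 1 month. Each group has 2 single-cell libraries, numbered 1 and 2 in the sample titles. Every library was made from 20000 CD45-negative and 9000 CD45-positive cells of the same tissue, sorted and mixed, so the ratio of blood-derived to structural cells was set by the sort. In all 4 libraries the lungs had been minced and digested with Liberase at 50 µg/ml and 37 °C for 1 hour. No library of undigested lung was analysed here, so transcripts already present in the living tissue and transcripts made during digestion cannot be told apart in any level below. The labels do not say whether the libraries of a group come from separate mice, so the p-values measure the spread between libraries, which may be technical.

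Immediate early genes are switched on within minutes of a stimulus by transcription factors that are already present in the cell, such as serum response factor with its partners and CREB, and need no new protein synthesis. Growth factors, cytokines, stretch and cell damage act on them through MAP kinase and calcium signalling, and their short-lived messages are then degraded again. Warm enzymatic digestion of tissue is widely known to induce the same genes, which makes them a standard quality concern in single-cell work. BPTES is an inhibitor of the kidney-type glutaminase, the mitochondrial enzyme that turns glutamine into glutamate.

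The first 5 of the genes by role encode subunits of the AP-1 family. Fos and Fosb are partners that bind DNA only as dimers with a Jun protein, Jun and Junb can bind with or without them, and Atf3 is a stress-induced member that often represses. Egr1 encodes a zinc finger factor induced through serum response factor. Nr4a1 and Nr4a2 encode orphan nuclear receptors, with Nr4a1 (Nur77) needed for non-classical monocytes and induced by antigen receptors in lymphocytes. Ier2 encodes a small nuclear protein induced together with them. Zfp36 encodes tristetraprolin, which binds AU-rich elements in cytokine messages and speeds their decay.

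In the GRCm38 annotation, Fos lies at chr12:85473890-85477273 on the plus strand, Jun at chr4:95049034-95052222 on the minus strand and Zfp36 at chr7:28376784-28380253 on the minus strand. Fosb is also on chromosome 7, Junb and Ier2 are on chromosome 8, Egr1 on 18, Atf3 on 1, Nr4a1 on 15 and Nr4a2 on 2. RefSeq promoter sequence of the build GRCm38.p6, from 250 bases before to 50 bases after the transcription start, was matched for 8 of the 10 genes, all but Egr1 and Ier2. Both strands of these windows were searched for the CArG box, which serum response factor binds, for the full cyclic AMP response element TGACGTCA and for the AP-1 site TGANTCA. The CRE half-site TGACG, which every full element contains, and the EGR motif GCGNGGGCG were added after the first search had been seen. The 250 bases before the start are shown for Zfp36, the 1 gene with a CArG box in its window, and for Fos and Nr4a1. Fos and Nr4a1 were added after their values were seen. Fos was added as the member with the highest mean over all cells, together with Jun, and Nr4a1 as the member with the most separate pattern. All are written 5′ to 3′ on the gene's own strand, at chr7:28379229-28379478, chr12:85473640-85473889 and chr15:101266596-101266845, and capitals mark the motif matches.
Zfp36: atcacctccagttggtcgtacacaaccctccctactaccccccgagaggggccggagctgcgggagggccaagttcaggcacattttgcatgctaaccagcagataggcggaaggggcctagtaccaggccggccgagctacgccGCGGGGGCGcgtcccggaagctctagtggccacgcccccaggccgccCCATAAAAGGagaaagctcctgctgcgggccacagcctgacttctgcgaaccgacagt
Fos: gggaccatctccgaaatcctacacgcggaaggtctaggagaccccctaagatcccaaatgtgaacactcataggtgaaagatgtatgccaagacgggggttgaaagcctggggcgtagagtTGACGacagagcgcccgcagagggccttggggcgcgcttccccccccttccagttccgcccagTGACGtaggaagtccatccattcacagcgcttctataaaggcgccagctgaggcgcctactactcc
Nr4a1: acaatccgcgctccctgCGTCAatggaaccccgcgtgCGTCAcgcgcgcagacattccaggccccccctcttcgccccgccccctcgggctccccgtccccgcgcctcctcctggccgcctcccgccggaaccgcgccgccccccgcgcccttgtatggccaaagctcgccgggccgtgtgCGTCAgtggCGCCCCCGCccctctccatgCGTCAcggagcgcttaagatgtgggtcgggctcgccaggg
The CArG box of Zfp36 began 58 bases before the start, and its EGR match began 105 bases before it. A CArG box was present in 1.63% of all 32851 promoter windows of the same length. Fos held CRE half-sites beginning 129 and 66 bases before the start, on the strand shown. In Nr4a1, 4 half-sites on the opposite strand read as CGTCA, beginning 233, 213, 69 and 40 bases before the start, and an EGR match began at 60. Nr4a2 likewise held 4 half-sites and 1 EGR match, Fosb held 1 of each, and Junb and Atf3 held 1 half-site. CRE half-sites were thus found in 6 of the 8 matched genes and in 20.8% of all windows, and EGR matches in 4 of 8 and in 5.55%. No full CRE (1.79% of all windows) and no AP-1 site (7.81%) was found in the 8 windows, which says only that these letters are not there. The same holds for the CArG box in the genes other than Zfp36, since bases outside the windows were not searched.

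After filtering, 63895 cells were kept, 14407 to 18860 per library, with a median of 13958 to 15749 UMIs (unique molecular identifiers, each counting 1 captured transcript) per cell. Median mitochondrial share was at least 1.43% in the BPTES libraries and 1.37% in both DMSO libraries. Between 27.9% and 30.1% of cells lay in clusters where Ptprc, which encodes CD45, was detected in 50% or more of the cells. Any 2 libraries had at most 93 cell barcodes in common, at most 0.614% of the cells of a library. Clustering gave 37 clusters, of which 30 could be named from marker genes as 24 classes. These names are written with "-like", since they were rebuilt from the counts, and 23.5% of the cells stayed in unnamed clusters. Levels are described for 20 classes, each holding 20 or more cells per library, and tests were run in the 18 holding 50 or more. Levels are given as CPM (UMIs per 1000000 UMIs of that class in that library, scaled with TMM factors), and they can be compared between genes because 3′ counting does not grow with transcript length.

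Over all cells, Fos and Jun were the most abundant of the 10 genes at means of 1667 and 1646 CPM, with Jun above Fos in 3 of 4 libraries, followed by Junb at 1398 and Egr1 at 1264. Zfp36 (588), Ier2 (538), Atf3 (533), Fosb (506) and Nr4a1 (416) were lower, and Nr4a2 was lowest at 161. Fos measured 1695 and 1504 CPM in BPTES libraries 1 and 2 and 1847 and 1623 in DMSO libraries 1 and 2. The libraries of the groups overlapped for Fos over all cells.

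Levels differed far more between cell classes than between libraries. For each gene, the SD between the 18 tested classes was 3.7 times (Ier2) to 9.6 times (Egr1) the median SD between libraries of a class, on the log2 scale. Of the 10 genes, 7 had their highest mean in peribronchial fibroblast-like cells, which were marked by Hhip, Aspn and Lgr6. The exceptions were Fosb (adventitial fibroblast-like), Atf3 (venous endothelial-like) and Nr4a1 (non-classical monocyte-like). AT1-like, T-like, B-like and alveolar macrophage-like cells gave the lowest summed levels.

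**Figure D1:**
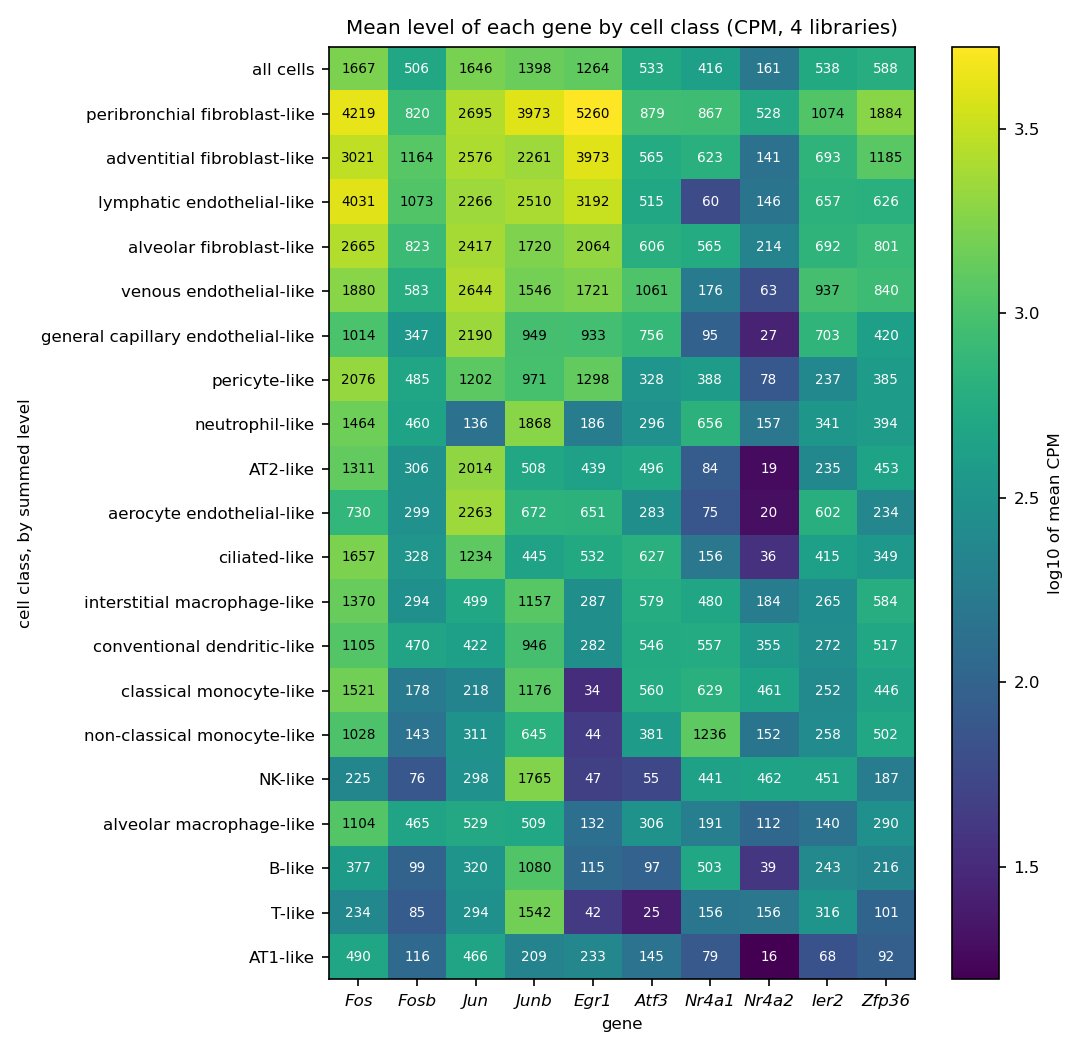
Mean level of each gene (columns) in all cells and in 20 cell classes (rows, ordered by the summed level of the genes), in CPM over the 4 libraries; colour is log10 of the mean and the printed value is the mean. Egr1 runs from 34 in classical monocyte-like cells to 5260 in peribronchial fibroblast-like cells, while Nr4a1 is highest in non-classical monocyte-like cells at 1236.

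Egr1 spanned the widest range. In peribronchial fibroblast-like cells it reached 5351 and 4519 CPM with BPTES and 5562 and 5607 with DMSO, against 35.3, 33.8, 30.3 and 35.2 CPM in classical monocyte-like cells in the same order. The ratio of the means was 156, and no library of either class came near the other class. Adventitial fibroblast-like cells came next at 3973 CPM (3465 to 4378), below every peribronchial library. Lymphatic endothelial-like (3192), alveolar fibroblast-like (2064) and venous endothelial-like cells (1721) followed, with ranges that overlapped their neighbours in the order. T-like (42.2), non-classical monocyte-like (43.5) and NK-like cells (47.1) were the other classes with means under 50 CPM.

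Fos was nearly as high in lymphatic endothelial-like cells (4031 CPM, 3840 to 4261) as in peribronchial fibroblast-like cells (4219 CPM, 3236 to 4860), and these ranges overlapped. Alveolar fibroblast-like cells (2665, 2294 to 3008) were separated from pericyte-like cells, the next in order (2076, 1701 to 2263). Among leukocytes, classical monocyte-like (1521), neutrophil-like (1464) and interstitial macrophage-like cells (1370) had Fos levels similar to AT2-like cells (1311). The lowest Fos level was in NK-like cells, at 319 and 228 CPM with BPTES and 196 and 155 with DMSO. Its paralog Fosb followed a similar order, from 1164 CPM in adventitial fibroblast-like cells to 75.8 in NK-like cells.

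The 8 highest classes for Jun were all fibroblast, endothelial or AT2-like classes, from 2695 CPM in peribronchial fibroblast-like to 2014 in AT2-like cells. Every AT2 library (1608 to 2226) lay above every library of the next class, ciliated-like cells (1003 to 1369). All leukocyte classes had means of 529 CPM or less, and AT1-like cells, an epithelial class, lay among them at 466 CPM (145 to 719). In neutrophil-like cells Jun was lowest, at 182 and 139 CPM with BPTES and 93.0 and 130 with DMSO.

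Junb did not follow Jun (Pearson correlation 0.09 across 18 class means, on log2 values, given as a description). Peribronchial fibroblast-like cells were highest at 3973 CPM (3366 to 4231), apart from lymphatic endothelial-like cells at 2510 (2082 to 2719). Neutrophil-like (1868) and NK-like cells (1765) came after adventitial fibroblast-like cells (2261) and ahead of alveolar fibroblast-like cells (1720), and T-like cells had 1542 CPM. Junb was the most abundant of the 10 genes in 4 classes, the B-like, T-like, NK-like and neutrophil-like cells. Jun was the most abundant in 4, Fos in 7, Egr1 in 2 and Nr4a1 in 1 of the 18 tested classes.

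Atf3 was highest in venous endothelial-like cells, at 963 and 876 CPM with BPTES and 1210 and 1196 with DMSO. Peribronchial fibroblast-like (879) and general capillary endothelial-like cells (756) followed with overlapping ranges. Aerocyte endothelial-like cells, the other capillary type, had 283 CPM. T-like cells were lowest at 25.2 CPM, below every NK-like library.

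The nuclear receptors departed most from the common order. Nr4a1 reached 1285 and 1219 CPM with BPTES and 1158 and 1283 with DMSO in non-classical monocyte-like cells, above all peribronchial fibroblast-like libraries (705 to 984). Classical monocyte-like (629) and neutrophil-like cells (656) had about the same Nr4a1 level as adventitial fibroblast-like cells (623). In contrast, lymphatic endothelial-like cells, which were rich in Fos and Egr1, had 60.2 CPM of Nr4a1 (33.3 to 80.5). For Nr4a2, peribronchial fibroblast-like (528), NK-like (462) and classical monocyte-like cells (461) overlapped at the top, and AT2-like cells had 18.6 CPM. Nr4a2 was the lowest of the 10 genes in 11 of the 18 tested classes.

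Ier2 was the flattest gene, from 1074 CPM in peribronchial fibroblast-like cells to 140 in alveolar macrophage-like cells, leaving aside AT1-like cells, of which a library held only 30 to 85. Zfp36 reached 1884 CPM (1749 to 1947) in peribronchial fibroblast-like cells, above all adventitial fibroblast-like libraries (1185, 1097 to 1349), and 101 CPM in T-like cells. Over the 10 genes, the 4-library ranges of neighbours in the order of classes overlapped in 163 of 190 cases, so the order is firm only in its broad steps.

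Across the 18 class means, the correlations of the 45 pairs of the genes ran from -0.48 (Jun with Nr4a1) to 0.91 (Fos with Fosb), with a median of 0.42. Points in these correlations share libraries and depth. The mean pattern of the 10 genes over 72 class-by-library points correlated most with Zfp36 (0.93), Fosb (0.90), Fos (0.89) and Egr1 (0.86) among its own members, and least with Nr4a2 (0.27) and Nr4a1 (0.18). Among 10259 genes, the 5 others most like it were Gstm5 (0.86), Il11ra1 (0.85), Peli2 (0.84), Colec12 (0.84) and Pgghg (0.84). These are descriptive, and a member contributes to the mean it is compared with.

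To compare the shares of cells with a UMI of each gene, each cell was thinned to 3000 UMIs, and 1046 to 1518 shallower cells per library were left out. On average 5.7 of the 10 genes were seen in a thinned cell, 68.3% of cells had at least 5 and 1.3% had none. Peribronchial fibroblast-like cells had 8.1 of the 10 on average. None of the genes was seen in 20.7% of ciliated-like, 17.8% of AT1-like and 13.1% of pericyte-like cells. Egr1 was seen in 66.3% of cells with a Fos UMI and in 30.9% of cells without, Junb in 88.8% and 64.6%, and Jun in 79.7% and 63.7%, in the same direction in 4 of 4 libraries. Cell class differs between Fos-positive and Fos-negative cells in these shares. Within classes the share in Fos-positive cells was the higher one in all 4 libraries in 17 of 20 classes for Egr1, in 17 for Jun, in 18 for Fosb and in 14 for Junb. It was lower overall for Egr1 in NK-like cells (11.6% against 12.9%), for Junb in alveolar macrophage-like cells (64.1% against 66.9%) and for Fosb in classical monocyte-like cells (34.1% against 35.3%).

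The shares followed the levels only in part. For each gene the class with the lowest thinned share was also the class with the lowest level. For Fos, Junb, Jun and Nr4a2 the highest level was in peribronchial fibroblast-like cells, but the highest thinned share was in another class. That class was neutrophil-like for Fos and Junb, aerocyte endothelial-like for Jun and classical monocyte-like for Nr4a2. Egr1 was seen in 97.8% of thinned peribronchial fibroblast-like cells (98.6% unthinned), and in 8.66% of thinned classical monocyte-like cells (44.7% unthinned), whose median depth was 25106 to 29188 UMIs against 14914 to 17970. Nr4a1 was seen in 93.6% of thinned non-classical monocyte-like cells (98.8% unthinned) and in 12.5% of lymphatic endothelial-like cells (27.6% unthinned), at median depths of 13347 to 14780 and 10842 to 12488 UMIs. Jun was seen in 97.4% of thinned aerocyte endothelial-like cells (98.4% unthinned) and in 19.3% of neutrophil-like cells (43.7% unthinned). No class is known to lack these genes, so the lowest share of each gene is the nearest value for free RNA in droplets. Over all cells the mean share for the 10 genes was 56.8% thinned and 74.0% unthinned.

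The levels also moved with cell quality. In cells with under 2.5% mitochondrial UMIs the 10 genes together made up 9111 and 8112 CPM with BPTES and 10467 and 9295 with DMSO. Between 2.5% and 5% these sums were 5340, 4475, 5372 and 4917 CPM, and between 5% and 10% they were 4390, 3521, 3864 and 4039, in the same library order. Every library was thus lower in the cells richer in mitochondrial UMIs. Within classes the same step from under 2.5% to between 2.5% and 5% went down in 37 of 41 sets of a class and a library with enough cells, and the level between 5% and 10% was below that under 2.5% in 13 of 13. The step from between 2.5% and 5% to between 5% and 10% went down in 12 of these 13, the exception being ciliated-like cells of DMSO library 2 (3391 and 4026 CPM). In general capillary endothelial-like cells, for example, the sum in DMSO library 1 was 8926 CPM, then 4897 and then 3590.

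**Figure D2:**
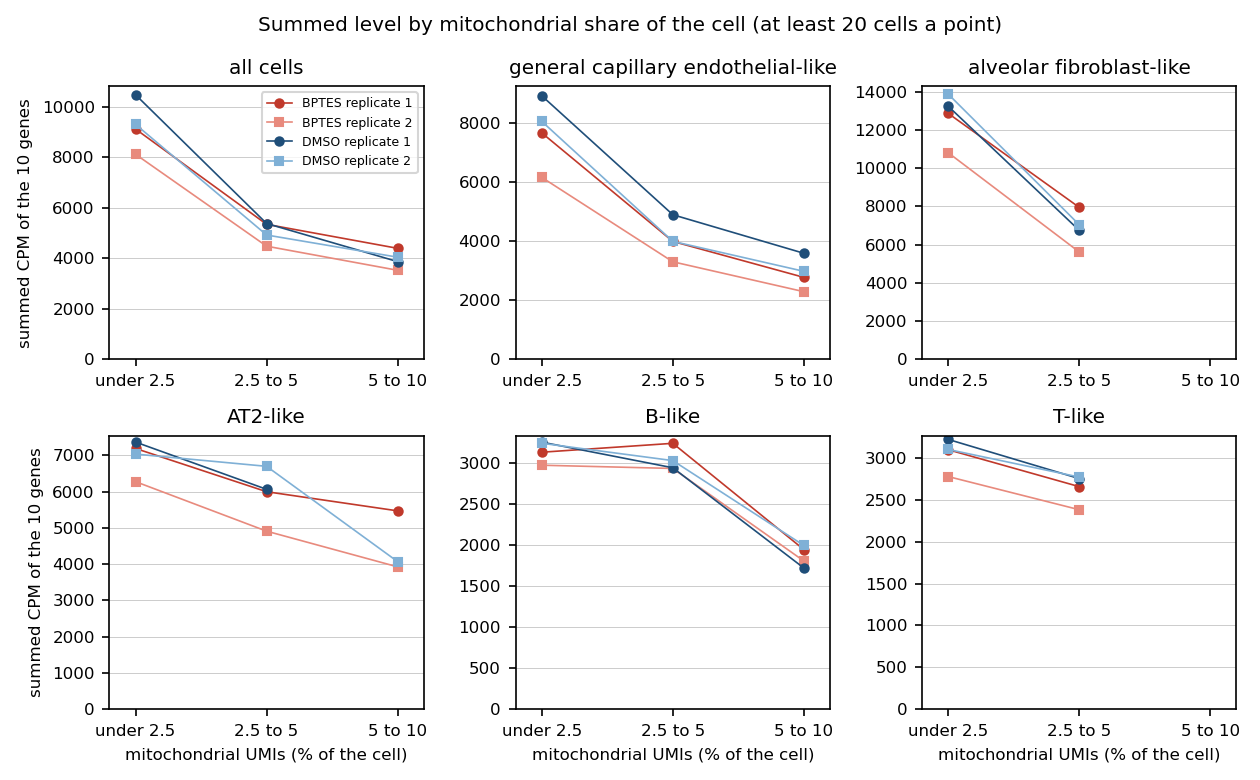
Summed CPM of the 10 genes (y axis) against the mitochondrial share of the cell (x axis, percent of UMIs) in all cells and 5 classes; each line is 1 library and each point holds at least 20 cells. All 4 libraries fall from 8112 or more to 4390 or less over all cells; B-like cells hold level between the first points.

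BPTES was compared with DMSO for each gene in each tested class with edgeR's quasi-likelihood test on UMIs summed per library, 180 pairs of gene and class in all. All 10 genes passed the filter on low counts in all 18 classes. At an adjusted p under 0.05, 2 pairs were higher with BPTES, Jun and Atf3 in classical monocyte-like cells, and 1 was lower, Egr1 in neutrophil-like cells. These are 1.11% and 0.556% of the pairs, beside 0.163% and 0.228% of all pairs of a tested gene and a class. At an unadjusted p under 0.05 there were 69 pairs, 20 higher (11.1%, beside 6.31% of all pairs) and 49 lower (27.2%, beside 6.44%). Both BPTES libraries lay below both DMSO libraries in 71 pairs (39.4%, beside 22.3% of all gene and class pairs) and above them in 22 (12.2%, beside 22.4%). In the other 87 pairs the groups overlapped, and the median log2 fold change of the 180 was -0.12. This balance differed with the library left out. Without BPTES library 2, 76 pairs were below (beside 35.6% of all gene and class pairs) and 60 above (beside 35.5%), with a median of -0.03. Without BPTES library 1, 114 were below (beside 37% of all pairs) and 26 above (beside 36.5%), with a median of -0.19. Calls in edgeR without BPTES library 2 were 8 higher (beside 0.337% of all pairs) and 2 lower (0.366%), and without BPTES library 1 they were 2 higher (1.2%) and 30 lower (0.821%). In these fits the spread comes from the 2 DMSO libraries alone, and the single BPTES library is assumed to vary like them. With 2 libraries against 2, an exact permutation test of a single value cannot give a p below 0.333, so counts of separated groups are descriptions.

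**Figure D3:**
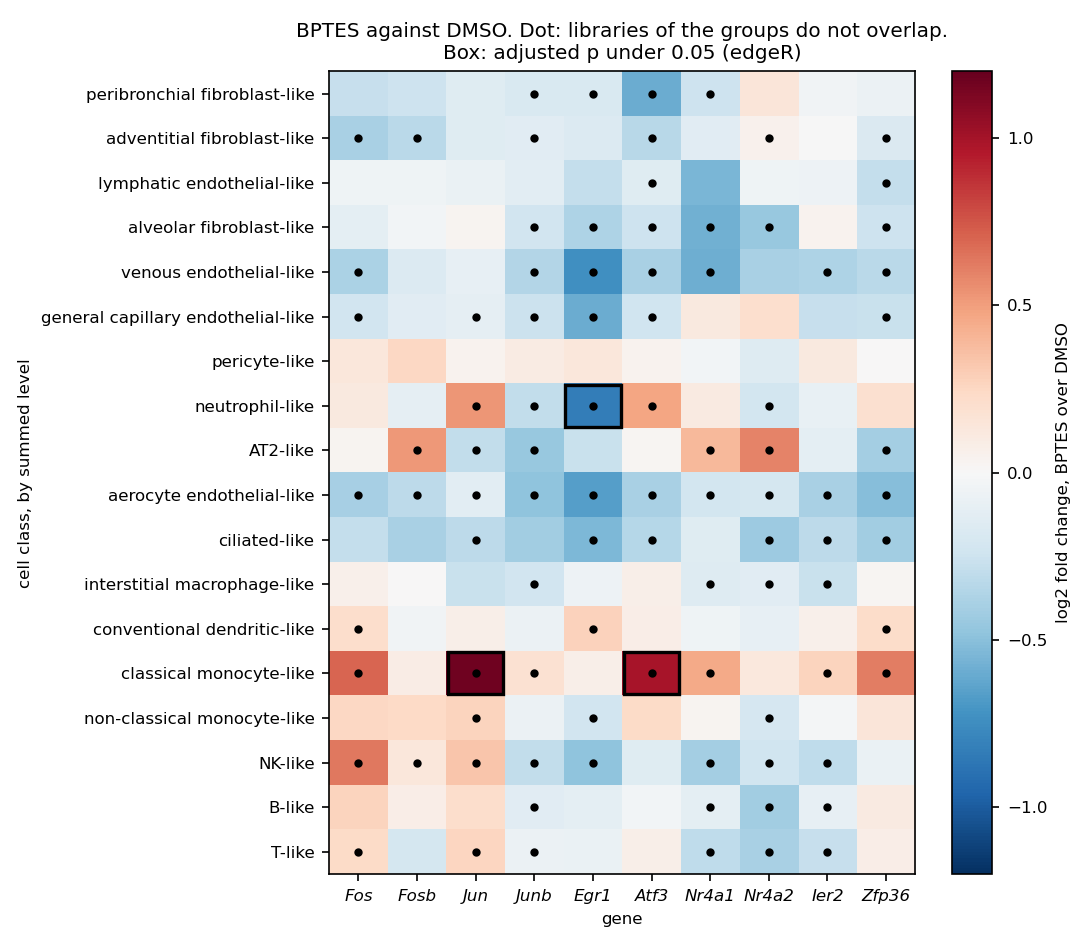
Log2 fold change of BPTES over DMSO (colour) for each gene (columns) in 18 classes (rows, ordered by summed level). Dots mark pairs whose libraries do not overlap between groups and boxes mark an adjusted p under 0.05 in edgeR; the classical monocyte-like row is the 1 row with all 10 values above 0 and 2 boxes.

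In classical monocyte-like cells, the inflammatory blood monocytes marked here by F13a1, Ccr2 and Ly6c2, Jun and Atf3 rose with BPTES, 5 more of the genes were separated by group in the same direction and 3 overlapped. Jun measured 344 and 260 CPM with BPTES and 108 and 160 with DMSO. Both BPTES libraries were above both DMSO libraries, with DMSO library 1 the lowest, and the log2 fold change was 1.17 (SE 0.18, edgeR adjusted p = 0.0350). Atf3 measured 806 and 686 CPM with BPTES and 302 and 450 with DMSO. It was separated in the same way, with a log2 fold change of 0.99 (SE 0.17, edgeR adjusted p = 0.0417).

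Fos in these cells measured 2086 and 1679 CPM with BPTES and 1020 and 1305 with DMSO. The groups did not overlap, and the log2 fold change of 0.70 (SE 0.13) missed the threshold at an edgeR adjusted p of 0.0576. Zfp36 measured 597 and 483 CPM against 316 and 389, likewise without overlap (log2 fold change 0.62, SE 0.12, edgeR adjusted p = 0.0623). Nr4a1 (780 and 677 against 443 and 619 CPM), Ier2 (288 and 263 against 212 and 246) and Junb (1307 and 1200 against 1088 and 1116) were also separated by group. Their log2 fold changes were 0.46, 0.27 and 0.19, at edgeR adjusted p of 0.170, 0.193 and 0.247. Without DMSO library 1 the values of Nr4a1 and Ier2 were 0.23 and 0.17, and without DMSO library 2 that of Nr4a1 was 0.72. In all, 7 of the 10 genes had both BPTES libraries on top, beside 24.7% of all genes tested in the class, and none had both below. Nr4a2, Fosb and Egr1 overlapped between groups (log2 fold changes 0.13, 0.09 and 0.07). The share of all genes called higher in this class was 0.727%.

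Other measures differed between the groups in the same cells, and their part in the result was not tested. Median depth was 25597 and 25106 UMIs per classical monocyte-like cell with BPTES against 29188 and 27230 with DMSO, and the median mitochondrial share was 1.40% and 1.37% against 1.47% and 1.45%. Of 6 AT2 cell markers, 5 were higher in both BPTES libraries, and their summed level there was 214 to 279 CPM against 93.8 to 170. Interstitial macrophage markers summed to 1380 to 1517 CPM against 1008 to 1146, with 2 of 6 higher and 2 of 6 lower in both BPTES libraries and none at 0. Heat shock genes, 13 in all, summed to 2935 and 3625 CPM with BPTES against 2733 and 2653 in the same cells. Among them Hspa1a, an inducible chaperone, rose (20.9 and 33.2 against 8.60 and 12.4 CPM, log2 fold change 1.37, edgeR adjusted p = 0.0468). The call of Hspa1a was lost at clustering resolution 0.5 and with another clustering seed. Alveolar macrophage markers summed to 683 to 743 CPM against 822 to 1212, with 1 of 6 higher, 2 lower and Marco at 0. The class was a single cluster of 475 to 661 cells per library, all of its own 6 markers were detected, and their summed level was 5102 and 5157 CPM with BPTES and 4982 and 5093 with DMSO. The calls of Jun and Atf3 were lost when predicted doublets were kept and the clustering repeated (edgeR adjusted p = 0.258 and 0.163), where none of the 12489 genes of the class was called, and the call of Jun was lost with another clustering seed (0.0508). In all, Jun passed the threshold in 12 of 15 alternatives and Atf3 in 13. Over 15 alternatives the log2 fold change was 0.88 to 1.48 for Jun and 0.73 to 1.31 for Atf3.

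**Figure D4:**
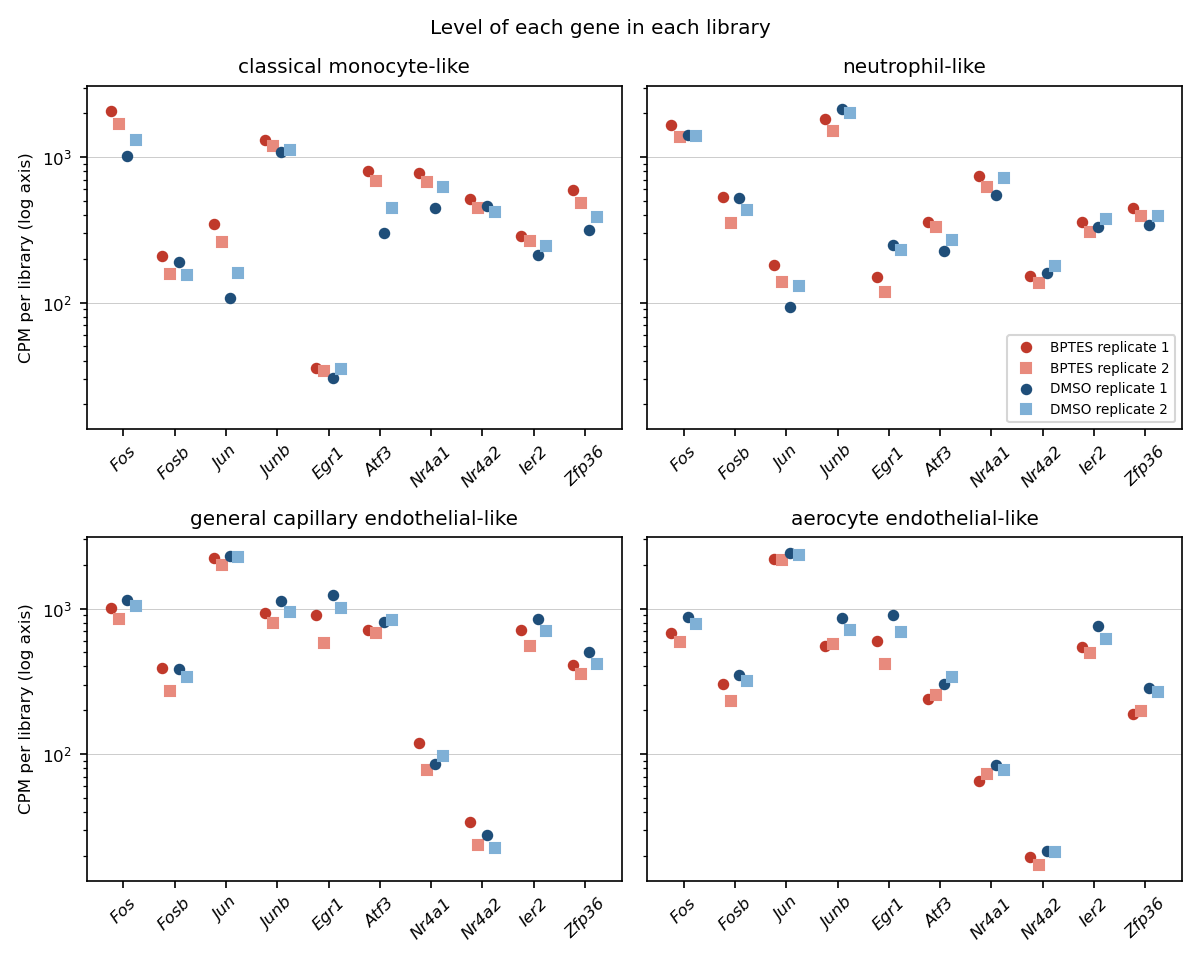
CPM of each gene (log axis) in each of the 4 libraries, in classical monocyte-like, neutrophil-like, general capillary endothelial-like and aerocyte endothelial-like cells. Red points are the BPTES libraries and blue points the DMSO libraries; red lies above blue for 7 genes in classical monocyte-like cells and below blue for all 10 in aerocyte endothelial-like cells.

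In neutrophil-like cells Egr1 measured 150 and 118 CPM with BPTES and 248 and 229 with DMSO. Both BPTES libraries were below both DMSO libraries, and Egr1 fell by 0.83 on the log2 scale (SE 0.12, edgeR adjusted p = 0.0439), in a class where 0.127% of genes were called lower. Without DMSO library 1 the adjusted p was 0.122, and with doublets kept 0.161. Junb (1837 and 1521 against 2122 and 2005 CPM) and Nr4a2 (153 and 137 against 160 and 177) were also below, making 3 of 10 beside 21.9% of all genes in the class. Jun (183 and 140 against 93.2 and 130) and Atf3 (358 and 332 against 227 and 269) were above, making 2 of 10 beside 22.7%, at edgeR adjusted p of 0.263 and 0.116. Their log2 fold changes of 0.53 and 0.48 were -0.31 and 0.03 with doublets kept, and that of Jun was 0.31 without DMSO library 1 and 0.32 without BPTES library 1. Junb (-0.30) was at -0.17 and Nr4a2 (-0.22) at -0.14 without BPTES library 2.

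Neutrophil-like cells came from clusters 9 and 26, of which the smaller had a median of 28930 UMIs per cell against 8950. Cluster 26 made up 22.8% and 27.1% of the class with BPTES and 17.1% and 24.2% with DMSO. In cluster 9 alone Egr1 was 185 and 152 CPM with BPTES and 327 and 319 with DMSO, while in cluster 26 it was 122 and 97.2 against 112 and 132, which overlap. Jun was nearly level in cluster 9 (66.1 and 63.9 against 57.9 and 63.2 CPM) and further apart in cluster 26 (309 and 217 against 131 and 190). Atf3 was above in cluster 9 (238 and 226 against 176 and 203 CPM) and in cluster 26 (497 and 450 against 271 and 323). The sum of the 6 neutrophil markers was 47518 and 49999 CPM with BPTES and 70499 and 68075 with DMSO (1 of 6 higher, 3 lower). Interstitial macrophage markers summed to 1338 to 1552 CPM against 817 to 1068 (4 of 6 higher), AT2 markers to 271 to 374 against 106 to 222 (5 of 6 higher) and plasmacytoid dendritic cell markers to 83.6 to 98.3 against 41.6 to 44.3 (5 of 6 higher). B cell markers summed to 11.7 to 24.5 CPM against 41.2 to 47.6 (6 of 6 lower) and T cell markers to 5.25 to 10.9 against 16.1 to 26.9 (5 of 6 lower). The part of these differences in the Egr1, Jun and Atf3 values was not tested. Without TMM factors the median of all genes in this class moved to 0.10, the largest such shift among the classes.

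In edgeR with TMM scaling, the filter on low counts, all 4 libraries and the group as the only term, none of the 10 genes passed the adjusted threshold in any endothelial class. In aerocyte endothelial-like cells, the large capillary cells of gas exchange marked by Ednrb and Car4, all 10 genes had both BPTES libraries below both DMSO libraries, beside 20.4% of all genes tested there. Their log2 fold changes ran from -0.66 to -0.12 with a median of -0.39, and 8 had an unadjusted p under 0.05, beside 4.96% of all genes there that were lower at that p. DESeq2 called 4 of them lower (beside 0.175% of all genes of the class), edgeR with no filter on low counts called 7 (beside 0.824%), and edgeR without BPTES library 1 called 7 (beside 1.09%) and without BPTES library 2 none. Without BPTES library 2 all 10 were still below, with a median of -0.31. Zfp36 came nearest, at 189 and 199 CPM with BPTES and 284 and 267 with DMSO (log2 fold change -0.51, SE 0.07, edgeR adjusted p = 0.0589). Egr1 measured 598 and 413 CPM against 907 and 693 (-0.66, SE 0.16, edgeR adjusted p = 0.181), with -0.42 without BPTES library 2. Junb measured 554 and 570 CPM against 859 and 712 (-0.48, SE 0.09, edgeR adjusted p = 0.100). BPTES was lower in each of these without overlap. Cells had 18301 and 18252 UMIs at the median in the BPTES libraries against 16826 and 17722, and AT2 markers summed to 262 to 349 CPM against 144 to 217 (5 of 6 higher). The part of these in the values was not tested.

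Venous endothelial-like cells had 7 genes below, beside 22.7% of all genes in the class. Egr1 measured 1464 and 1123 CPM with BPTES and 2428 and 1885 with DMSO, separated by group, with a log2 fold change of -0.74 (SE 0.15, edgeR adjusted p = 0.198). In the same cells the median mitochondrial share was 1.38% and 1.42% with BPTES against 1.27% and 1.26% with DMSO. Alveolar fibroblast markers there summed to 310 to 339 CPM against 349 to 450 (4 of 6 lower). AT2 markers summed to 290 to 389 CPM against 151 to 244 (3 of 6 higher). The part of these measures in the values was not tested. In general capillary endothelial-like cells 6 genes were below, beside 27.4%, and Egr1 was again the gene with the lowest fold change, at 906 and 583 CPM against 1245 and 1002 (-0.59, SE 0.21, edgeR adjusted p = 0.187). That value was -0.95 without BPTES library 1 and -0.31 without BPTES library 2. That class is made of 2 clusters whose weight differed: cluster 1, led by Sox11 and Sema3c, held most of its cells in BPTES library 1 (55.0%) and in DMSO libraries 1 and 2 (71.8% and 60.6%), while cluster 3, led by Sema6d and Ldb2, held 61.5% in BPTES library 2. Within cluster 1 Egr1 was 916 and 605 CPM against 1320 and 1065, and within cluster 3 it was 896 and 515 against 1112 and 931. BPTES was below DMSO in both clusters. Markers of other classes differed as well: venous endothelial markers summed to 202 to 212 CPM against 325 to 395 (1 of 6 lower), adventitial fibroblast markers to 179 to 192 against 238 to 267 (4 of 6 lower) and AT2 markers to 309 to 423 against 157 to 267 (5 of 6 higher). None of these markers was at 0. The median mitochondrial share was 1.27% and 1.43% with BPTES against 1.18% and 1.21% with DMSO. The part of these differences in the values was not tested. In lymphatic endothelial-like cells 2 genes were below, beside 21.6% of all genes there, and 8 overlapped between groups. Such counts were not confined to endothelial classes. In ciliated-like cells 6 genes were below (beside 19.2% of all genes there), with a median log2 fold change of -0.37. In alveolar fibroblast-like cells 6 were below (beside 26%), with a median of -0.24.

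Across genes, Junb was below in 12 of 18 classes, the most of any member, followed by Egr1 and Nr4a2 in 9 each, Atf3, Nr4a1 and Zfp36 in 8, Ier2 in 7, Fos and Jun in 4 and Fosb in 2. The 18 classes come from the same libraries, so they are not separate observations, and these counts are descriptions. Junb, for example, was lowest in BPTES library 2 in 14 classes and highest in DMSO library 1 in 13. At the share of all gene and class pairs (22.3%) a gene would be below in 4.01 of 18 classes, and above (22.4%) in 4.03. Jun was above in 5 classes and Fos in 4, near that share, and the other genes in 1 or 2. Jun and Fos were above in T-like cells (2 of 10, beside 21.3% of all genes) and, with Fosb, in NK-like cells (3 of 10, beside 20%). Junb, Nr4a1, Nr4a2 and Ier2 were below in T-like cells (4 of 10, beside 21.9%) and, with Egr1, in NK-like cells (5 of 10, beside 19.6%). T-like cells came from clusters 13, 18 and 20, whose weight differed. Cluster 13 held 51.4% and 49.4% of the class with BPTES and 42.1% and 30.7% with DMSO. Jun and Fos overlapped between groups within clusters 13 and 18 and were above only in cluster 20. Nr4a2 was below only in cluster 13. The part of the cluster weights in the T-like values was not tested. In NK-like cells Fos measured 321 and 230 CPM with BPTES and 197 and 156 with DMSO (log2 fold change 0.63, SE 0.15, edgeR adjusted p = 0.186), a value that was 0.37 without BPTES library 1 and 0.02 when the described and list genes took part in the clustering. In AT2-like cells Fosb, Nr4a1 and Nr4a2 were above (3 of 10, beside 23.1%) and Jun, Junb and Zfp36 below (3 of 10, beside 23.4%), with Junb nearest to the threshold (453 and 406 against 598 and 576 CPM, edgeR adjusted p = 0.0536). Atf3 in peribronchial fibroblast-like cells measured 700 and 706 CPM against 1059 and 1068 (log2 fold change -0.60, SE 0.12, edgeR adjusted p = 0.132). In pericyte-like cells none of the 10 genes was separated by group.

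Whether an effect differed between classes was tested for 3 pairs of classes with an interaction of class and treatment, with the library as a block, giving 30 tests of these genes, of which 4 passed an adjusted p of 0.05 (beside 0.504% of all genes over the 3 pairs). All 4 were between general capillary endothelial-like and classical monocyte-like cells, where 1.33% of all genes passed. The effect of BPTES was higher in the monocytes by 1.24 for Atf3 (SE 0.16, edgeR adjusted p = 0.0185), by 1.28 for Jun (SE 0.18, 0.0209), by 0.92 for Fos (SE 0.15, 0.0267) and by 0.87 for Zfp36 (SE 0.17, 0.0410), on the log2 scale. Egr1 differed by 0.69 (SE 0.21, edgeR adjusted p = 0.142). None of the 10 genes passed between general capillary endothelial-like and alveolar fibroblast-like cells, where Nr4a1 came nearest (-0.69 in the fibroblasts relative to the capillary cells, SE 0.10, edgeR adjusted p = 0.0673), or between alveolar fibroblast-like and T-like cells. All 4 differences lost the threshold with doublets kept.

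The summed level of the 10 genes, in plain CPM, over all cells was 8597 and 7576 with BPTES and 9956 and 8802 with DMSO. The groups did not overlap, by a margin that was small beside the gap within a group. The cell numbers of the classes differed as well. Alveolar fibroblast-like cells numbered 1718 and 1746 with BPTES and 2254 and 2374 with DMSO, and B-like cells 711 and 625 against 1390 and 1592. AT2-like cells numbered 384 and 396 against 114 and 233. The part of these numbers in the sum over all cells was not tested. Within classes the sum was below in 12 of 18 and above in 2. It was lowest in BPTES library 2 in 14 of 18 classes and highest in DMSO library 1 in 9. The deviation of the genes from their class means averaged -0.17 in BPTES library 2 on the log2 scale, beside 0.06 in BPTES library 1, 0.07 in DMSO library 1 and 0.05 in DMSO library 2. BPTES library 1 thus stood with the DMSO libraries in this mean, which mixes classes of opposite direction. In classical monocyte-like cells the deviations were 0.34 and 0.09 with BPTES and -0.34 and -0.10 with DMSO. In aerocyte endothelial-like cells they were -0.12 and -0.26 with BPTES and 0.27 and 0.12 with DMSO. Restricted to cells under 2.5% mitochondrial UMIs, the sum was below in 10 classes and above in 2.

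Heat shock genes, which are also known to respond to the handling of cells, were higher in the same library. The sum of 13 of them was 3104 and 4126 CPM over all cells with BPTES and 2629 and 2800 with DMSO. BPTES library 2 was highest in 18 of 18 classes, and the groups were separated, with BPTES above, in 16. Over the classes 7 of 232 heat shock gene and class pairs were called higher and none lower in edgeR, beside 0.163% and 0.228% of all gene and class pairs. In 161 (69.4%) both BPTES libraries were above, beside 22.4% of all pairs, and the median log2 fold change was 0.46. Hspa1b, an inducible chaperone, rose by 2.39 in interstitial macrophage-like cells (29.2 and 38.2 against 5.96 and 6.81 CPM, edgeR adjusted p = 0.00266), in a class where 1.84% of all genes were called higher. It rose by 2.09 in neutrophil-like cells (11.8 and 13.3 against 2.91 and 2.97 CPM, edgeR adjusted p = 0.0212). Hsph1 and Hspa1a, chaperones as well, rose in interstitial macrophage-like cells (log2 fold changes 1.38 and 1.24, edgeR adjusted p = 0.0423 and 0.0450). In that class the calls of Hsph1, Hspa1a and Hspa1b were lost at clustering resolution 0.5. Those of Hsph1 and Hspa1a were also lost at resolution 2. Dnaja1, a co-chaperone, rose in lymphatic endothelial-like and non-classical monocyte-like cells (0.70 and 1.07, edgeR adjusted p = 0.0256 and 0.0416), and Hspa1a in classical monocyte-like cells. The call of Dnaja1 in non-classical monocyte-like cells was lost at resolution 2. The part of whatever sets library 2 apart in the values of the 10 genes was not tested.

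**Figure D5:**
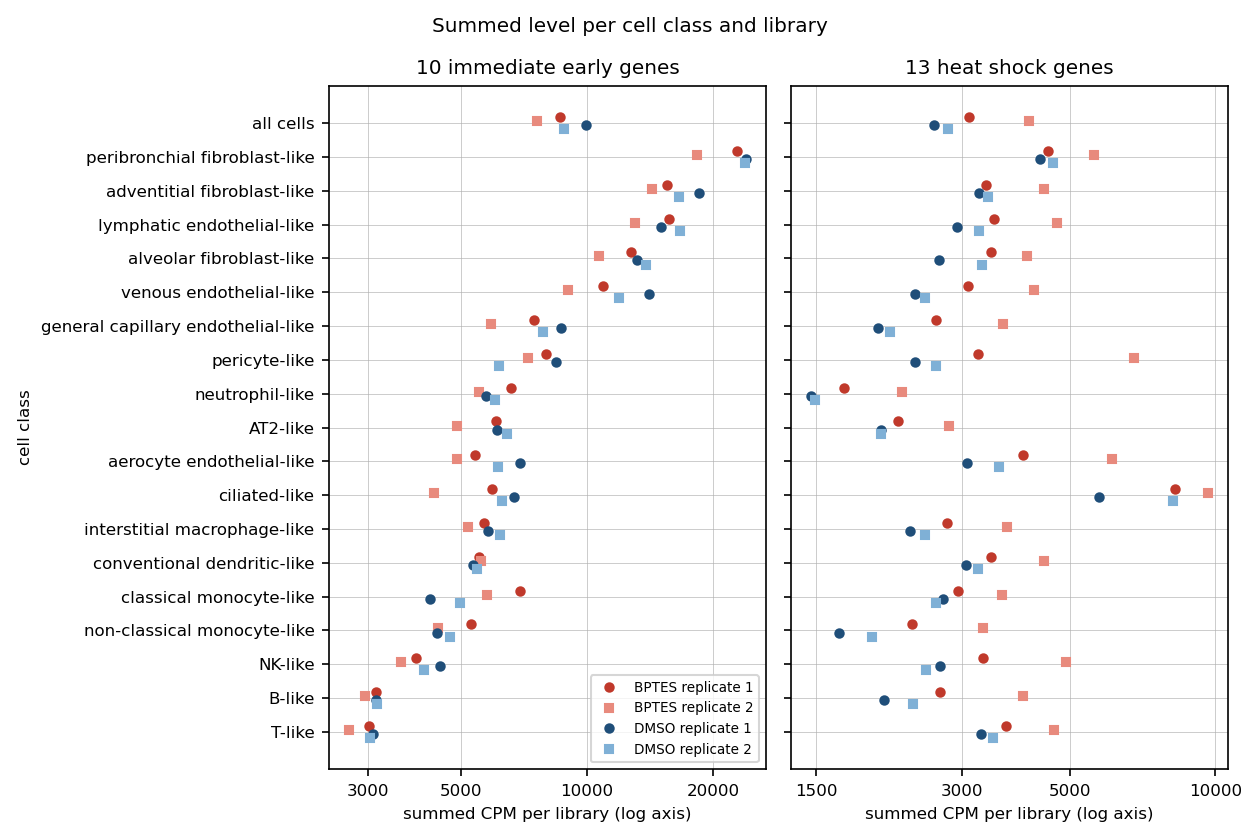
Summed CPM (log axis) of the 10 immediate early genes (left) and of 13 heat shock genes (right) in all cells and 18 classes, 1 point per library. BPTES library 2, the light red square, is lowest on the left in 14 of the 18 classes and highest on the right in all 18.

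Other genes of the same response were taken from 4 further lists. Of 36 symbols of other early response genes, 34 were in the files, and the other two, Ccn1 and Ccn2, are newer names of listed genes present as Cyr61 and Ctgf. Of their 590 gene and class pairs 5 were called higher and 3 lower in edgeR (beside 0.163% and 0.228% of all gene and class pairs), with 21.2% above (beside 22.4% of all pairs), 26.3% below (beside 22.3%) and a median log2 fold change of -0.03, beside medians of all genes within 0.01 of 0 in each class. All 5 higher calls were in classical monocyte-like cells, where 0.727% of all genes were called higher. There 19 of 33 tested were above, beside 24.7% of all genes, 1 was below, beside 23.9%, and the median was 0.22. Klf6, a growth-regulating zinc finger factor, measured 425 and 402 CPM against 279 and 270 there (log2 fold change 0.59, edgeR adjusted p = 0.0186). Rhob, a short-lived small GTPase, measured 107 and 124 CPM against 60.2 and 69.4 (0.83, 0.0199), and Cebpd, an inflammatory transcription factor, 99.0 and 99.1 against 62.7 and 69.9 (0.58, 0.0262). Klf2 and Jund were the other 2, named here after their values were seen. Called lower were Socs3, an inhibitor of cytokine signalling, in AT2-like cells (191 and 185 against 409 and 332 CPM, log2 fold change -0.98, edgeR adjusted p = 0.00981), Fosl1, a Fos relative, in neutrophil-like cells (-0.76, 0.0334), and Csrnp1 in alveolar fibroblast-like cells (-0.71, 0.0350). With doublets kept and the clustering repeated, none of the 22 calls of list genes, heat shock genes included, passed the threshold.

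Messages that tristetraprolin is known to target gave 4 higher and 1 lower call in 118 pairs, with a median of -0.03, beside 0.163% and 0.228% of all gene and class pairs called. Ccl3, a chemokine, rose in classical monocyte-like cells (120 and 80.6 against 23.7 and 33.7 CPM, log2 fold change 1.80, edgeR adjusted p = 0.0186) and fell in interstitial macrophage-like cells (209 and 177 against 271 and 292 CPM, -0.55, edgeR adjusted p = 0.0391). Ccl2 also rose in classical monocyte-like cells (log2 fold change 0.71, edgeR adjusted p = 0.0350), Cxcl2 in interstitial macrophage-like cells (0.38, 0.0258) and Ptgs2 in AT2-like cells (1.11, 0.0496). Interstitial macrophage-like cells, which hold several of these calls, had 2.81% of all genes called lower and 1.84% called higher. These 345 and 226 genes became 13 and 8 at clustering resolution 0.5, 17 and 6 at resolution 2, and 42 and 19 with doublets kept, and the calls of Ccl3 and Cxcl2 in this class were lost under each of these. Over 15 alternatives Ccl3 there ranged from -1.01 to -0.14 and Cxcl2 from -0.30 to 0.55, and 2 of them turned the direction of Cxcl2. Feedback inhibitors of MAP kinase signalling had 0 higher and 2 lower calls in 199 pairs, the phosphatases Dusp2 (-0.74, edgeR adjusted p = 0.00978) and Dusp5 (-0.48, 0.0432) in interstitial macrophage-like cells. Both calls were likewise lost at both other resolutions and with doublets kept, and Dusp2 ranged from -0.83 to -0.23 over the alternatives and Dusp5 from -0.57 to 0.05. Upstream kinases and transcription factors, 19 of 21 symbols in the files, had no call in 342 pairs, with 29.2% above and 17.0% below, beside 22.4% and 22.3% of all pairs.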

How the data were processed

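The authors deposited raw UMI counts per gene and cell barcode, 1 matrix per library, made with Cell Ranger 8.0.1 and the mm10 build per the submitters' processing notes. Library totals were 260346570 to 342107092 UMIs in 16440 to 21986 barcodes. 

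Barcodes with at least 500 genes, 1000 UMIs and at most 10% mitochondrial UMIs were kept, and 4780 predicted doublets were removed with Scrublet scores (0.4% per 1000 barcodes). Cells were clustered with scanpy 1.11.5 on 2000 variable genes, leaving out the described genes and most list genes (40 components, 15 neighbours, Leiden resolution 1). Clusters were named from 6 markers per class, with the name withheld for a marker score under 1.5, for fewer than 3 markers seen in 10% of cells, or where leading genes belonged to another class. Counts were summed per class and library. The test was the quasi-likelihood test of edgeR 4.0.16 (R 4.3.3) after filterByExpr and TMM scaling, with Benjamini-Hochberg adjustment over all genes of the class. Levels beside tests use the genes that passed the filter, so they differ slightly from levels by class. The test was also run on simulated counts of general capillary endothelial-like, alveolar fibroblast-like and T-like cells, drawn with the spread that edgeR had fitted. None of these classes holds a called pair of the described genes, so the simulation does not bear on the calls. DESeq2 1.42.0 was an alternative.

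Named genes were all 10 members, called genes of the fixed lists (at most 3 per class and list, by adjusted p), and the 5 genes most like the members. The members, lists and naming thresholds were chosen with earlier results of these data known. List symbols absent from the files were Ccn1, Ccn2, Mrtfa and Mrtfb, whose older symbols Cyr61, Ctgf, Mkl1 and Mkl2 were present. The labels do not say whether the replicate numbers pair the samples, and the main test did not use these numbers.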

Additional observations from a re-analysis of the deposited data

Results flagged for a closer look

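The effect of BPTES differed between general capillary endothelial-like and classical monocyte-like cells for 4 genes, by the interaction test in edgeR. The difference, monocytes minus capillary cells on the log2 scale, was 1.24 for Atf3 (adjusted p = 0.0185), with values from 0.97 to 1.51 over 14 alternatives. For Jun it was 1.28 (edgeR adjusted p = 0.0209), from 0.99 to 1.58. For Fos it was 0.92 (edgeR adjusted p = 0.0267), from 0.68 to 1.17, and for Zfp36 0.87 (edgeR adjusted p = 0.0410), from 0.58 to 1.17. Jun, Atf3 and Fos passed the threshold in 13 of 14 alternatives and Zfp36 in 11, and with doublets kept none of them passed. The direction was the same in each of the alternatives run, in which the monocytes had the higher effect. These 4 genes were picked because they were called, so the shared direction is not a separate check. General capillary endothelial-like cells are 2 clusters whose weight differed between the libraries, while the monocytes are 1 cluster.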

How the results depend on the processing

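Against 2 gene and class pairs called higher and 1 called lower (0.163% and 0.228% of all pairs), DESeq2 called 5 and 12 (0.585% and 0.679%), no filter on low counts 13 and 40 (1.36% and 1.43%), and doublets kept with clustering repeated 0 and 0 (0.0113% and 0.0243%). Clustering seed 1 gave 1 higher (0.15%), a 5% mitochondrial limit gave 3 lower (0.239%), and library size only, an alternative chosen after seeing the data, gave 3 lower (0.27%). Without 1 library the calls ranged from 2 to 10 higher and from 1 to 30 lower. They were 2 and 30 without BPTES library 1 (1.2% and 0.821% of all pairs), 8 and 2 without BPTES library 2 (0.337% and 0.366%), 5 and 1 without DMSO library 1 (0.195% and 0.336%), and 10 and 4 without DMSO library 2 (0.612% and 0.782%). Pairs with every remaining BPTES library above every remaining DMSO library ranged from 26 to 60, and those below from 76 to 114, when 1 library was left out, since fewer libraries separate more easily. The 4 differences of effect between classes (0.504% of all tested) became 11 without the filter (2.76%), 0 with doublets kept (0%), and 3 to 8 without 1 library (0.242% to 2.93%). The mean share of cells with a UMI was 74.0% unthinned against 56.8%. None of 12 named gene and class pairs and 4 differences of effect changed sign under the alternatives run. The 12 pairs were already separated by group, so leaving out 1 library could not be expected to turn them. The 4 differences were the ones called in the main setting. No conclusion on stability is drawn from these unchanged signs. Over all pairs the log2 fold change took the other sign in 19 to 27 without 1 library, in 22 with doublets kept and in 0 to 16 under each other alternative. Every pair rested on at least 75 UMIs in each library (Egr1 in NK-like cells the fewest).

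With the replicate block, in which the replicate number is a term, 0 pairs were higher and 15 lower (0.74% and 0.684% of all pairs), among them 7 in aerocyte endothelial-like cells (beside 1.92% of all genes there) and Egr1 in neutrophil-like cells, the 1 pair shared with the calls without it. Jun and Atf3 in classical monocyte-like cells then had log2 fold changes of 1.18 and 1.01 at an edgeR adjusted p of 0.0745 each. Deviations of libraries with the same number had a correlation of -0.08 to 0.16 over the classes, with a median of -0.01. With only 2 pairs this cannot decide whether the numbers pair the samples.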

Other observations

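Barcodes outside the named classes also carried the 10 genes. In the 3348 cells of an unnamed cluster led by Mgp, Mfap5, Il6 and Mmp3, genes of matrix-producing and inflamed fibroblasts, their sum was 12866 to 15169 CPM over the libraries. An unnamed cluster of 5305 cells led by Cxcl12, Edn1 and Efnb2, genes of arterial endothelium among others, had 6865 to 9630 CPM. The 2208 barcodes over the mitochondrial limit had 2345 to 3734 CPM, below the 7576 to 9956 CPM of the kept cells in every library. In the 3174 barcodes that failed only the limits on genes or UMIs the sum was 8173 to 10944 CPM, and in the removed doublets 7357 to 8808 CPM.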
